A study of Bos taurus with 9 samples.

Results

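The genes described here are the 175 bovine genes named ZNF plus a number that were detected in cloned embryos. They were chosen by name and level: a symbol of ZNF followed by digits in any of the 9 files, ZNF41 left out, a place in all 9 files, and a level of 1 FPKM or more in 3 or more of the 9 libraries. FPKM counts sequenced fragments scaled to transcript length and to the fragments of the library. Of 247 such rows in any file 242 were in all 9, and 175 of these passed the level. All 9 files together held 16129 genes, 10431 of which reached the same level. The embryos were clones: fibroblasts of a female Holstein fetus were fused with enucleated oocytes, a procedure called somatic cell nuclear transfer (SCNT). The libraries formed 3 groups of 3. Control morulae were uninjected SCNT embryos at day 5, in pools of 5. KDM6A morulae were the same except that mRNA for wild-type bovine KDM6A, an enzyme that removes a repressive methyl mark from histones, was injected 1 h after activation. The third group was uninjected SCNT embryos at the 8-cell stage. The design text takes these 8-cell libraries from an earlier series, so wherever they are used, developmental stage and origin of the libraries cannot be told apart. The protocols describe the same donor cells for all 9 libraries, from 1 fetus. The labels do not say whether pools came from separate days, so the spread that the p-values rest on may be partly technical.

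Most genes named ZNF code for proteins with repeated C2H2 zinc fingers, each of which grips a few bases of DNA. In a large subset a KRAB domain next to the fingers recruits the corepressor TRIM28 and through it the histone methyltransferase SETDB1, which silences transposable elements and nearby genes. These genes arose by repeated duplication and often lie in clusters. In early mammalian embryos they are known for keeping imprinted methylation and for holding retroelements in check while the embryonic genome is turned on. Other proteins with the same prefix share only the finger and act in RNA processing, ribosome assembly or cell division.

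The injected transcript was first compared between groups. KDM6A was at 10.7, 13.9 and 10.7 FPKM in the control libraries, at 35.6, 87.6 and 79.4 in the KDM6A libraries and at 6.13, 9.41 and 10.7 in the 8-cell libraries. All 3 KDM6A libraries lay above every control, and KDM6A replicate 1 had less than either of the other two. The 5 pluripotent embryo markers POU5F1, NANOG, SOX2, DPPA3 and KLF17 all reached 1 FPKM in each group. Oocyte and maternal markers (6 of 7 found) summed to 3706 to 9018 FPKM in 8-cell libraries, against 19.5 to 447 in control and 107 to 188 in KDM6A morulae. Fibroblast markers summed to at most 69.3 FPKM, in 8-cell replicate 2, where LUM was at 29.1 and FBN1 at 10.6. Trophectoderm markers summed to 290 to 355 FPKM in control morulae, 245 to 295.5 in KDM6A morulae and 323 to 449 in 8-cell embryos. The 8-cell sums were mostly TFAP2C, at 311, 425 and 310 FPKM, above every control. By contrast GATA3, KRT8, KRT18 and DAB2 were lower in every 8-cell library than in any control, and GATA2 overlapped. GATA2, GATA3 and DAB2 were lower in every KDM6A library than in any control, while KRT8, KRT18 and TFAP2C overlapped. The blood marker HBA was at 65.7 to 220 FPKM over the 9 libraries, while HBB was at most 0.33. Cumulus and granulosa markers (5 of 6 found) summed to 9.01 to 11.1 FPKM in control morulae, 5.19 to 8.25 in KDM6A morulae and 9.11 to 30.7 in 8-cell embryos. INHA was listed at 0 in all KDM6A and 8-cell libraries, while STAR was at 3.52 to 10.8 over the 9 libraries and HAS2 at 5.57, 19.8 and 9.34 in 8-cell embryos.

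Since the rule asks for 1 FPKM, the number of genes at that level describes the choice. Between 150 and 159 of the 175 genes reached 1 FPKM in a control library, 156 to 160 in a KDM6A library and 141 to 148 in an 8-cell library. In 113 genes all 9 libraries reached it. The median ZNF gene stood at 3.38 to 4.54 FPKM over the libraries, where the median of all 10431 genes that passed the same level stood at 6.87 to 9.40. The 175 genes together held 0.197% to 0.221% of the summed FPKM in control morulae, 0.226% to 0.254% in KDM6A morulae and 0.259% to 0.326% in 8-cell embryos. These shares did not overlap between any of the groups, and they lean on few genes, since the 5 highest held 32.2% to 40.9% of the ZNF sum in each library. The ZNF sums themselves overlapped between KDM6A morulae (2096 to 2312 FPKM) and 8-cell embryos (2231 to 2672), and were 1929 to 2085 in control morulae. The summed FPKM of a whole library was lower in 8-cell embryos (820346 to 860798) than in morulae (913646 to 1022423). No such share is given for other sets of genes. The nearest genes below the rule were ZNF575 and ZNF710, whose third-highest values were 0.91 and 0.89 FPKM, followed by ZNF713 (0.74), ZNF331 (0.73) and ZNF414 (0.69). The nearest above it were ZNF420 (1.02), ZNF182 (1.03), ZNF570 (1.06), ZNF839 (1.11) and ZNF521 (1.17). Of the 67 rows that fell below, 15 reached 1 FPKM in 1 or 2 libraries and the highest single value was 3.34.

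The highest ZNF genes were few and only partly of the KRAB type. ZNF394, which carries a SCAN and a KRAB domain, stood at 191, 192 and 185 FPKM in control morulae, 231, 253 and 224 in KDM6A morulae and 314, 209 and 366 in 8-cell embryos. The small protein gene ZNF706, tied to the exit from pluripotency in mouse stem cells, stood at 214, 196 and 179 in controls, 181, 128 and 136 in KDM6A morulae and 303, 312 and 364 in 8-cell embryos. Both were above 120 FPKM in all 9 libraries, and for both the 8-cell libraries lay above every control. ZNF207, a spindle assembly protein that loads the checkpoint factor BUB3, was at 136, 68.1 and 78.1 FPKM in control morulae, at 118, 142 and 153 with KDM6A and at 201, 78.0 and 133 in 8-cell embryos. ZNF593, a nucleolar factor of large ribosomal subunit assembly, was at 133, 102 and 107 FPKM in control morulae, at 115, 147 and 99.6 with KDM6A and at 86.2, 48.1 and 71.9 in 8-cell embryos. ZNF215, a SCAN and KRAB gene, was at 86.8, 86.0 and 102 FPKM in control morulae, at 88.2, 118 and 102 with KDM6A and at 91.9, 102 and 126 in 8-cell embryos. These genes filled the 5 highest places in both morula groups, while in 8-cell embryos ZNF280B (87.6, 72.7 and 84.5 FPKM) took the place of ZNF593. For ZNF207 and ZNF215 the 3 groups overlapped. In control morulae ZNF706 and ZNF394 overlapped, as did ZNF207 and ZNF215, so their order is not set beyond the spread.

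**Figure D1:**
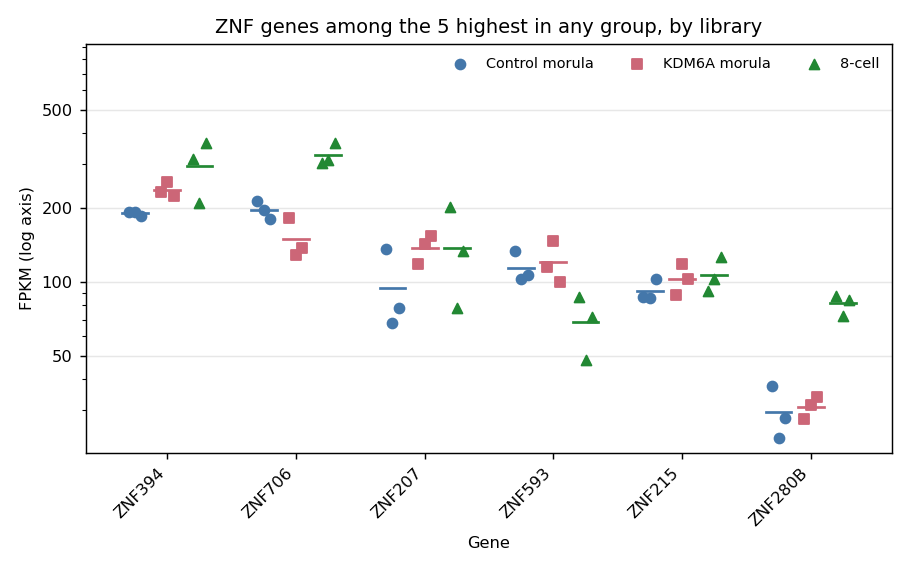
Levels of the ZNF genes that are among the 5 highest in any group, in FPKM on a log axis, for each of the 9 libraries (points) with the group mean (line). ZNF706 and ZNF280B stand higher in the 3 8-cell libraries than in all 6 morula libraries, ZNF593 stands lower there, and the groups of ZNF215 and ZNF207 overlap.

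Some ZNF genes varied less than others over the libraries. The spread over the 9 libraries was described by the coefficient of variation (the SD as a percent of the mean), which had a median of 35.0% over the 84 genes with a mean of at least 5 FPKM. It was smallest in ZNF215 (14.0%), the KRAB gene ZNF79 (15.3%), the SCAN gene ZNF397 (15.7%), the KRAB gene ZNF317 (16.1%) and ZNF134 (16.2%). ZNF79, for example, was at 15.3, 14.5 and 12.7 FPKM in control libraries, at 17.8, 14.0 and 11.8 with KDM6A and at 11.1, 16.6 and 13.9 in 8-cell embryos, with all groups overlapping. The largest coefficients were in ZNF280C (144%), ZNF217 (96.3%), ZNF354B (90.6%), ZNF432 (87.7%) and ZNF323 (83.6%). In all 5 of these the 8-cell libraries stood above every control morula, and in ZNF280C 1 library carried most of the spread. Over the 175 genes the log2 levels of libraries correlated at 0.933 to 0.974 within a group, at 0.924 to 0.972 between control and KDM6A morulae, and at 0.746 to 0.835 between either morula group and 8-cell embryos. These are correlations across genes, which are not independent replicates.

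The comparison of control morulae with 8-cell embryos asks how ZNF transcripts differ between these stages of cloned embryos. It called 37 ZNF genes higher in control morulae and 40 lower among 165 tested, at a limma adjusted p below 0.05. Over all 10048 genes tested the shares were 42.7% higher and 27.1% lower, against 22.4% and 24.2% of the ZNF genes. Counting both directions, 69.8% of all genes and 46.7% of ZNF genes were called. The median log2 fold change, on the scale of log2(FPKM + 1), was 0.11 for ZNF genes and 0.35 for all genes. Libraries of the 2 groups did not overlap in 46 ZNF genes that were higher and 44 that were lower, 54.5% of those tested. Among all genes tested this held for 45.4% higher and 29.1% lower, 74.5% together. In 51 of the 175 genes the morula and 8-cell files did not give the same ZNF symbol to the shared gene identifier, and an effect of the source series cannot be told apart from one of stage. In these bulk samples fewer cells that express a gene and less RNA per cell cannot be told apart either. Among the 124 genes with the same symbol in both file sets 26 were higher and 30 lower of 116 tested, and among the other 51 the calls were 11 and 10 of 49.

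The balance of the calls moved with the scaling of the libraries. Quantile normalization shifted the all-gene median of log2 fold changes from 0.35 to 0.07, and median-of-ratios scaling took it to 0.11. With the first, 23 ZNF genes were higher and 57 lower, and with the second 27 and 51, so that 28.7% and 34.6% of the ZNF calls were higher, against 48.1% without scaling. For all genes these shares of calls were 52.0%, 53.0% and 61.2%. Leaving out any control library lowered the number of higher calls, to 18, 19 and 20 without replicate 1, 2 and 3, while the number of lower calls was 30 to 34 with any library left out. No share of all genes is given for these fits with a library left out. Since many ZNF genes are low, the calls were also split by mean level. Of ZNF genes below 5 FPKM 23.8% were higher and 17.5% lower, of those from 5 to 20 FPKM 23.0% and 31.1%, and of those above 20 FPKM 16.7% and 29.2%. For all genes the shares higher were 39.9%, 43.9% and 44.4%, and the shares lower 27.5%, 25.4% and 28.1%, in the same order of level. In each class the share called higher was the smaller for ZNF genes. The summed oocyte and maternal markers given above also differed between these groups, and their part in the differences was not tested.

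**Figure D2:**
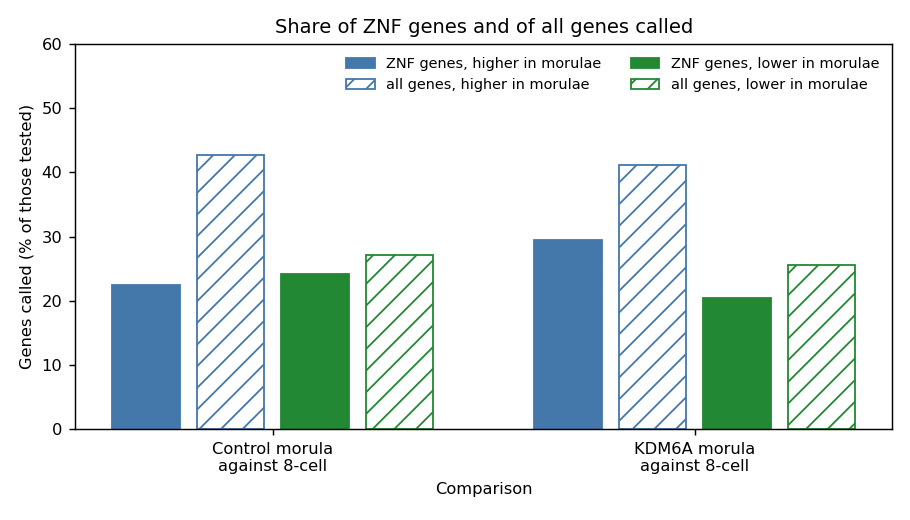
Share of genes called at a limma adjusted p below 0.05, in percent of those tested, for ZNF genes (filled bars) and all genes (hatched bars) in both comparisons with 8-cell embryos. ZNF genes were called higher in control morulae in 22.4% of tests and all genes in 42.7%, and lower in 24.2% and 27.1%.

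**Figure D3:**
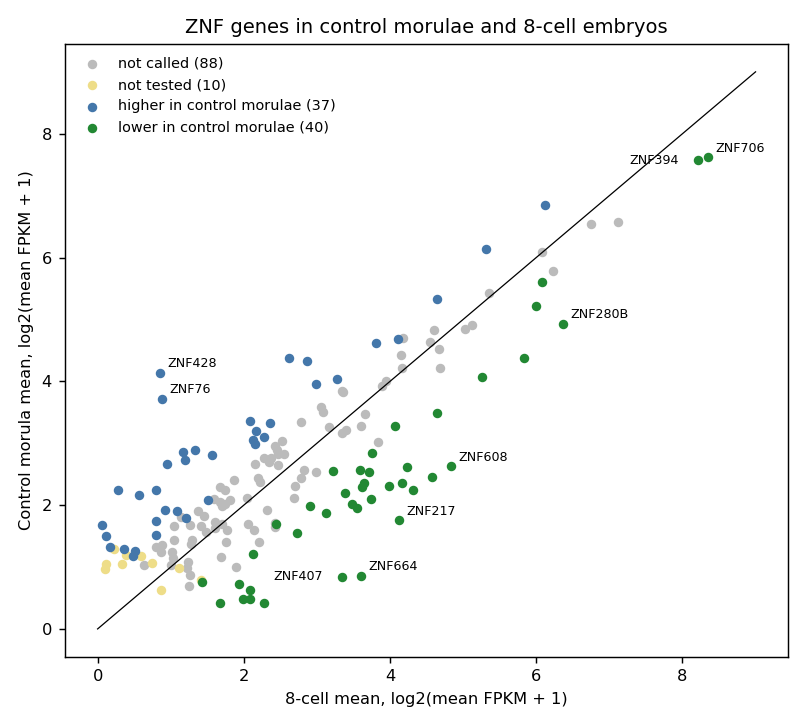
Mean level of each of the 175 ZNF genes in 8-cell embryos (horizontal axis) and control morulae (vertical axis), as log2(mean FPKM + 1), colored by the call. The line marks equal means, with the 37 genes called higher in control morulae above it and the 40 called lower below it.

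The largest rises toward the control morula were in ZNF428 and ZNF76, and the genes described next are those with a mean of 5 FPKM or more in the higher group. ZNF428 (ENSBTAG00000012796.4) was at 15.8, 15.3 and 18.7 FPKM in control morulae and 1.61, 0.64 and 0.16 in 8-cell embryos, 20.7-fold higher by mean FPKM (log2 fold change 3.36, SE 0.311, adjusted p = 1.4e-05). ZNF76, a close relative of the promoter-binding activator ZNF143, was at 10.9, 16.01 and 9.58 against 0.94, 1.22 and 0.36, 14.5-fold higher (log2 fold change 2.84, SE 0.286, adjusted p = 2.19e-05). In both the lowest control library was several times the highest 8-cell library. The KRAB gene ZNF705A was at 17.5, 23.3 and 18.4 FPKM in controls and 4.82, 2.51 and 8.16 in 8-cell embryos (log2 fold change 1.85). ZNF383, of the same type and on chromosome 18, was at 4.27, 6.81 and 7.68 against 0.94, 1.92 and 0.91 (log2 fold change 1.68). ZNF311, another, was at 6.43, 5.56 and 4.88 against 0.58, 2.19 and 1.13 (log2 fold change 1.58). No library of one group crossed into the other in these 3 genes. ZNF133 (log2 fold change 1.28) and ZNF555 (log2 fold change 1.27), also KRAB genes, had means of 9.21 ± 1.28 and 6.04 ± 1.65 FPKM (SD, n = 3) in controls and 3.25 ± 0.858 and 1.96 ± 0.987 in 8-cell embryos. ZNF496, whose SCAN and KRAB protein binds the histone methyltransferase NSD1, was at 15.8, 22.6 and 19.0 against 4.91, 4.94 and 8.97 (3.05-fold). ZNF692, known from the response of liver genes to the AMP analog AICAR, was at 5.29, 8.85 and 5.20 against 2.08, 1.57 and 0.91 (log2 fold change 1.56). ZNF32 was at 5.51, 5.82 and 4.68 against 1.83, 0.97 and 0 in the 8-cell libraries (log2 fold change 1.83), so that 1 library listed no transcript. Adjusted p-values of these 8 genes lay between 0.000488 and 0.00357, and each of the 10 genes was called under every alternative in which it was tested, both scalings and each library left out included.

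The largest falls were of similar size. ZNF664 (ENSBTAG00000039023.2) was at 1.57, 0.20 and 0.68 FPKM in control morulae and 12.4, 9.24 and 11.8 in 8-cell embryos, 13.6-fold lower by mean FPKM (log2 fold change -2.80, SE 0.305, adjusted p = 3.47e-05). ZNF407, a large protein with many fingers, was at 0.55, 0.96 and 0.87 against 9.21, 6.88 and 11.4. Since no control library of ZNF407 reached 1 FPKM, it was tested only through the 8-cell libraries, where it is high. The direction of its difference was thus fixed by the filter. ZNF217, an oncogene product that works with the CoREST and LSD1 corepressors, was at 2.46, 2.59 and 2.06 against 15.2, 19.0 and 14.9, 6.91-fold lower (log2 fold change -2.36, SE 0.229, adjusted p = 1.79e-05). All 3 were at or below 2.6 FPKM in every control library and above 6.8 in every 8-cell library. ZNF608, a relative of ZNF609, was at 5.99, 4.56 and 4.95 against 22.8, 30.6 and 29.2 (5.33-fold lower). ZNF389 was at 4.64, 4.27 and 3.47 against 12.9, 21.6 and 16.1 (4.08-fold lower). ZNF367 was at 3.26, 3.11 and 3.43 against 10.6, 11 and 15.5 (3.78-fold lower). In these the groups stood well apart with little spread. Of the KRAB genes, ZNF432 was at 3.33, 4.56 and 3.90 against 12.6, 17.5 and 14.5 (3.78-fold lower), and ZNF677 at 6.06, 4.61 and 4.81 against 20.6, 12.3 and 20.6 (3.45-fold lower). A row named ZNF354B in the morula files and ZNF93 in the 8-cell files, both names of KRAB genes, was at 5.48, 2.88 and 2.78 against 9.85, 29.8 and 16.9. Since ZNF genes have close copies, and no source used here says how reads matching several copies were divided, the levels of single copies are uncertain, and so are those of genes that overlap another on the opposite strand, since the library kit named in the protocols does not mark strand. ZNF280C was also called (log2 fold change -1.60, adjusted p = 0.0422), but its 8-cell libraries held 7.42, 8.09 and 52.9 FPKM. Without 8-cell replicate 3 its log2 fold change was -0.73 and the adjusted p = 0.0765. The call was also lost with a pseudocount of 0.1 (0.0522), with no filter (0.162) and without control replicate 2 (0.133) or 3 (0.0737). Apart from ZNF407, which was not tested with any 8-cell library left out, the others were called under every alternative.

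**Figure D4:**
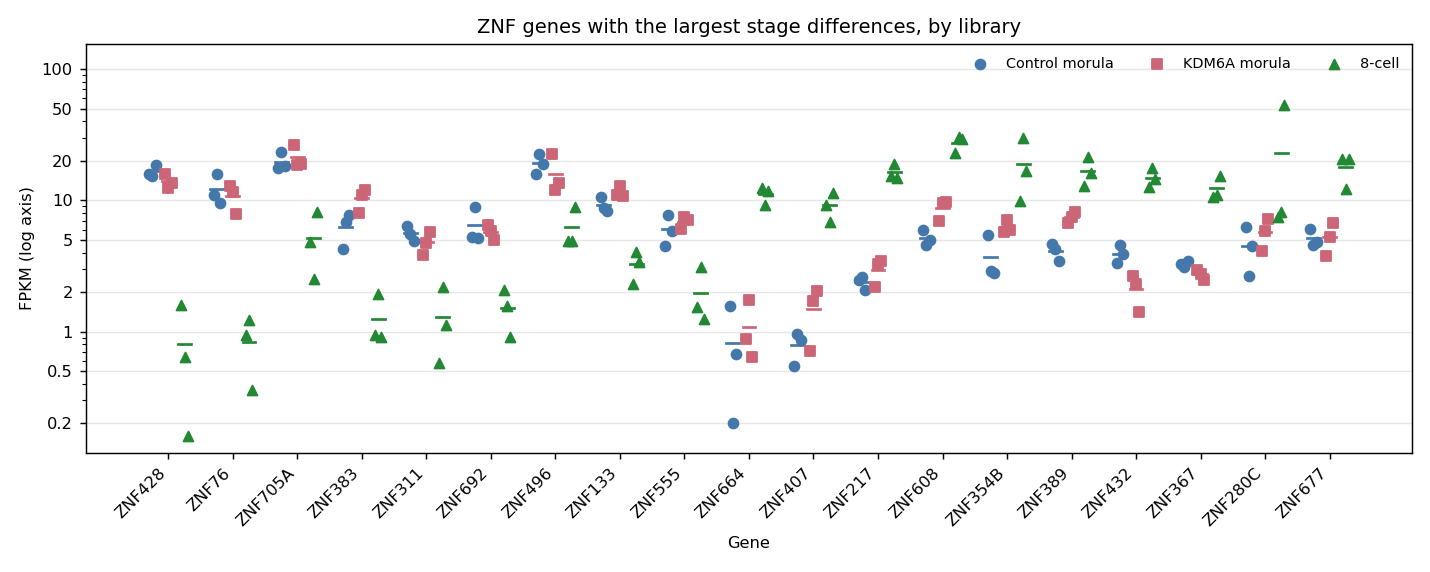
Levels in FPKM on a log axis of 19 of the 20 ZNF genes with the largest called differences between control morulae and 8-cell embryos among those with a mean of 5 FPKM or more in the higher group (points, libraries; lines, group means), with the KDM6A morulae beside them. The 9 genes at the left are higher in all control libraries than in any 8-cell library and the 10 at the right are lower; ZNF32 is not drawn because 1 library lists it at 0.

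A few ZNF genes reached 1 FPKM at a single stage. The 8 genes that did so in all 6 morula libraries and in no 8-cell library were ZNF35, ZNF48, ZNF175, ZNF177, ZNF239, ZNF500, ZNF704 and ZNF839. ZNF704 was at 2.73, 4.57 and 3.84 FPKM in controls and 0.53, 0.10 and 0 in 8-cell embryos, where 1 library listed it at 0. ZNF35 was at 2.22, 2.09 and 2.34 against 0, 0 and 0.12, listed at 0 in 2 libraries. The KRAB gene ZNF177 was at 3.83, 4.48 and 2.83 against 0.76, 0.94 and 0.53. The reverse, 1 FPKM in all 3 8-cell libraries and in no morula library, held for ZNF75D, ZNF182, ZNF436 and ZNF532. ZNF436, a KRAB gene, was at 1.88, 3.84 and 4.06 in 8-cell embryos and 0.89, 0 and 0.31 in controls. ZNF532, a partner of the chromatin reader ZMYND8, was at 1.93, 5.04 and 1.89 in 8-cell embryos against 0.38, 0.27 and 0.54. Genes that entered through 1 stage had to differ between stages. Of the 165 tested, 10 had no 8-cell library at 1 FPKM (9 called higher) and 8 had no control library at 1 FPKM (8 called lower). In the 147 with at least 1 library at that level in both groups the calls were 28 higher and 32 lower. No share of all genes is given for detection at 1 stage or under this restriction, so these counts do not set ZNF genes apart.

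The genes were then grouped by known role. Beside the lists that follow, the shares of all genes tested in control morulae against 8-cell embryos were 42.7% higher and 27.1% lower. With quantile normalization these shares were 36.1% and 33.2%, and with median-of-ratios scaling 36.7% and 32.5%. Of a list of 20 ZNF genes tied to silencing and corepressor complexes 10 were among the 175, and in the comparison of control morulae with 8-cell embryos 1 of the 10 was higher, 2 were lower and the median log2 fold change was -0.28. The 2 lower genes were ZNF217 and ZNF532, given above, and ZNF532 was tested only through the 8-cell libraries. The higher one was ZNF350, which represses with BRCA1, at 6.77, 8.75 and 5.22 FPKM against 3.58, 2.49 and 4.24 (2.01-fold, adjusted p = 0.0194). This call was lost under quantile normalization (adjusted p = 0.138), median-of-ratios scaling (0.0680) and without control replicate 1 (0.0510) or 2 (0.0921) or 8-cell replicate 2 (0.0537). With quantile normalization 0 genes of the list were higher and 5 lower, and with median-of-ratios scaling 0 and 4. The most abundant gene of the list, ZNF277, which binds the Polycomb protein BMI1, was at 63.8, 46.0 and 51.7 FPKM in controls and 81.4, 55.2 and 85.0 in 8-cell embryos (adjusted p = 0.108). ZNF296, a partner of the pluripotency network, was at 19.6, 34.8 and 20.6 against 17.2, 16.4 and 17.5 (adjusted p = 0.112). ZNF644, which guides the methyltransferases EHMT1 and EHMT2, was at 2.87, 2.86 and 3.22 against 1.99, 2.55 and 2.23 (adjusted p = 0.246). ZNF518A had an adjusted p of 0.552. None of these 4 passed the threshold. In ZNF296 and ZNF644 the control libraries nonetheless lay above all 8-cell libraries, by a narrow gap, while in ZNF277 and ZNF518A the groups overlapped.

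Of 21 activators and developmental regulators 15 were present, with 2 higher in control morulae (ZNF76 and ZNF408), 6 lower and a median log2 fold change of -0.17. The lower genes were ZNF131, ZNF148, ZNF263, ZNF335, ZNF367 and ZNF711, of which ZNF711 was tested only through the 8-cell libraries. ZNF131, a BTB domain factor, was at 21.5, 19.1 and 18.6 FPKM against 65.1, 52.0 and 51.1 in 8-cell embryos, 2.84-fold lower (adjusted p = 0.00012). ZNF335, a part of a histone H3K4 methyltransferase complex, was at 2.50, 3.03 and 2.41 against 8.55, 8.18 and 6.51 (2.93-fold lower). ZNF148, which binds GC-rich promoters, was at 4.10, 5.59 and 5.13 against 13.0, 7.72 and 12.3 (2.23-fold lower). ZNF263 was at 5.80, 7.76 and 4.97 against 10.5, 15.8 and 11.3, a call at adjusted p = 0.00947 that stood at 0.0504 without control replicate 3. The 8-cell libraries were the higher in each of these 4 genes, with no overlap. ZNF410, known for acting almost solely on the NuRD subunit gene CHD4, was at 49.9, 41.7 and 34.0 against 46.3, 28.1 and 45.7 (adjusted p = 0.785), and the groups overlapped. ZNF281 (adjusted p = 0.703) and ZNF24 (0.611) were not called either. Quantile normalization gave 1 higher and 7 lower, and median-of-ratios scaling 2 and 7.

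The third list held proteins of RNA, ribosome, ubiquitin and spindle biology, of which 13 of 21 were present. Here 3 were higher in control morulae (ZNF106, ZNF330 and ZNF593), 4 were lower (ZNF598, ZNF622, ZNF638 and ZNF706) and the median log2 fold change was -0.24. The nucleolar protein gene ZNF330 was at 72.8, 70.0 and 65.4 FPKM against 39.2, 39.7 and 36.9, 1.80-fold higher (adjusted p = 0.00179). ZNF593 was 1.66-fold higher at adjusted p = 0.0169, a call lost with no filter (0.0512), under median-of-ratios scaling (0.0709) and without control replicate 1 (0.0647). ZNF106, an RNA-binding factor of splicing, was at 23.9, 26.2 and 23.9 against 15.2, 17.5 and 16.4. ZNF622, which like ZNF593 matures the large ribosomal subunit, went the other way, at 46.8, 47.8 and 48.0 against 70.0, 59.1 and 71.2 (1.41-fold lower, adjusted p = 0.0345). That call was lost without any control replicate (0.0876 to 0.115) and without 8-cell replicate 1 (0.0675) or 3 (0.0940). ZNF638, which works with the HUSH complex on unintegrated DNA, was at 37.6, 35.7 and 35.0 against 69.3, 50.1 and 68.5 (1.73-fold lower, adjusted p = 0.00609). ZNF598, the ubiquitin ligase of collided ribosomes, was at 2.69, 3.92 and 4.06 against 11.2, 8.67 and 8.48 (2.66-fold lower, adjusted p = 0.00159). ZNF706 was 1.66-fold lower at adjusted p = 0.00338. The list thus held ribosome factors on both sides. Quantile normalization gave 2 higher and 5 lower, and median-of-ratios scaling 1 and 5.

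The 4 genes of the ZNF280 family are relatives of the fly insulator protein Su(Hw). ZNF280B, ZNF280C and ZNF280D were called lower in control morulae than in 8-cell embryos, while ZNF280A was not called. ZNF280C is given above. ZNF280B was at 37.5, 23.1 and 27.9 FPKM in control morulae, 27.6, 31.4 and 34.0 in KDM6A morulae and 87.6, 72.7 and 84.5 in 8-cell embryos, 2.76-fold lower in controls than in 8-cell embryos (adjusted p = 0.000232). ZNF280D was at 5.06, 3.52 and 3.17 in controls, at 4.63, 3.86 and 3.95 with KDM6A and at 10.4, 13.9 and 9.37 in 8-cell embryos (2.87-fold lower, adjusted p = 0.00125). ZNF280A, the neighbor of ZNF280B on chromosome 17, was at 13.8, 6.48 and 10.6 in controls, at 18.1, 21.7 and 21.3 with KDM6A and at 10.4, 6.93 and 5.19 in 8-cell embryos (controls against 8-cell embryos, adjusted p = 0.293). ZNF280A thus overlapped between controls and 8-cell embryos while its neighbor separated widely.

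KDM6A morulae were compared with the same 8-cell libraries, so the values that follow share that group with those above. Here 49 ZNF genes were higher in KDM6A morulae and 34 lower among 166 tested, 29.5% and 20.5%, where all 10024 genes gave 41.1% and 25.6%, or 66.7% together. Of the 166, 11 had no 8-cell library at 1 FPKM (10 called higher) and 4 had no KDM6A library at 1 FPKM (4 called lower). The direction of these was fixed by the filter. In the 151 with at least 1 library at that level in both groups the calls were 39 higher and 30 lower. Libraries did not overlap in 54 that were higher and 42 that were lower, against 43.2% and 28.2% of all genes (71.3% together). The median log2 fold change was 0.18 for ZNF genes and 0.34 for all genes. With quantile normalization the split was 28 higher and 49 lower, and with median-of-ratios scaling 34 and 44, so the larger side changed with the scaling. Of all genes 34.3% were higher and 31.5% lower with quantile normalization, and 35.5% and 30.7% with median-of-ratios scaling. Without KDM6A replicate 2 or 3 the number of higher calls was 21 and 27, for which no share of all genes is given. ZNF428 was at 15.9, 12.4 and 13.6 FPKM in KDM6A morulae (17.4-fold the 8-cell mean, adjusted p = 1.56e-05) and ZNF76 at 12.9, 11.6 and 7.86 (12.8-fold, adjusted p = 2.33e-05). ZNF664 was at 0.88, 1.74 and 0.64 (10.3-fold lower, adjusted p = 2.38e-05), ZNF217 at 2.19, 3.25 and 3.45 (5.53-fold lower) and ZNF407 at 0.71, 1.71 and 2.03 (6.17-fold lower). These 5 genes were also the ones with the largest differences in control morulae. ZNF432 was at 2.67, 2.29 and 1.41 (7.0-fold lower), the KRAB gene ZNF235 at 2.74, 1.76 and 1.68 against 9.61, 12.8 and 8.10 (4.93-fold lower), and ZNF323, named ZSCAN31 in the 8-cell files, at 2.81, 1.77 and 2.52 against 6.57, 12.9 and 12.5 (4.51-fold lower). The KRAB gene ZNF558 was at 3.76, 2.99 and 3.95 against 11.04, 10.6 and 13.0 (3.24-fold lower). Among the 10 largest rises here and not among those with controls were the KRAB genes ZNF177, which had no 8-cell library at 1 FPKM, and ZNF266, at 13.6, 18.8 and 25.7 against 9.54, 6.11 and 5.08 (2.80-fold), and ZNF280A (2.71-fold, adjusted p = 0.0013). A call in one of these comparisons and not in the other shows no difference between KDM6A and control morulae, which was tested directly.

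The direct comparison of KDM6A with control morulae asks whether the added KDM6A mRNA altered ZNF transcripts. No ZNF gene was called in either direction among 162 tested, with limma, where 0.164% of all 9777 genes were called (0.123% higher and 0.0409% lower). At an unadjusted p below 0.05 there were 14 higher and 6 lower, 12.3% of ZNF genes against 12.7% of all genes (6.31% higher and 6.41% lower). Libraries did not overlap in 18 that were higher and 7 that were lower, 15.4% against 15.7% of all genes (7.1% higher and 8.61% lower). These shares lay near those of all genes. The sign was less even: 101 of the 162 (62.3%) had a log2 fold change above 0, against 48.6% of all genes, and the medians were 0.09 and -0.01. The whole range of ZNF log2 fold changes was -0.67 to 1.15.

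The smallest adjusted p belonged to ZNF711 (ENSBTAG00000002668.5), an X-linked gene whose protein brings the histone demethylase PHF8 to promoters. It was at 0.53, 0.66 and 0.45 FPKM in control morulae, 1.93, 3.58 and 2.01 in KDM6A morulae and 4.68, 2.42 and 2.61 in 8-cell embryos. The KDM6A libraries lay above every control and overlapped the 8-cell libraries. Its adjusted p of 0.0875 was above the threshold. No control library reached 1 FPKM, so ZNF711 was tested only through the KDM6A libraries, a difference was fixed by the filter, and with any KDM6A library left out it was not tested. Next in order was ZNF280A, given above (log2 fold change 0.97, adjusted p = 0.212). ZNF389 was at 6.73, 7.51 and 8.14 FPKM with KDM6A against 4.64, 4.27 and 3.47 without (log2 fold change 0.73, adjusted p = 0.253). ZNF608 was at 6.97, 9.48 and 9.71 against 5.99, 4.56 and 4.95 (log2 fold change 0.65, adjusted p = 0.287). The KRAB gene ZNF75A was at 3.83 ± 0.432 against 2.23 ± 0.204 (SD, n = 3; log2 fold change 0.58, adjusted p = 0.303). In each of these 5 genes all KDM6A libraries lay above all controls. On the other side the KRAB gene ZNF432 was at 2.67, 2.29 and 1.41 with KDM6A against 3.33, 4.56 and 3.90 without (log2 fold change -0.67, adjusted p = 0.302), and ZNF45, also of the KRAB type, at 23.2, 17.9 and 21.1 against 30.3, 31.2 and 26.2 (log2 fold change -0.48, adjusted p = 0.324). ZNF789, ZNF706 and ZNF175 had log2 fold changes of -0.54, -0.41 and -0.50 and adjusted p-values of 0.344, 0.347 and 0.349. The KDM6A libraries lay below all controls in these genes except ZNF706, where KDM6A replicate 1 fell inside the control range.

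KDM6A replicate 1, the library with the least KDM6A transcript of its group, differed from the other two in some ZNF genes, as in genes at large. KDM6A replicates 2 and 3 lay above all controls in 46 of the 175 genes, and replicate 1 did so in 19 of these and not in 27. They lay below all controls in 21, of which replicate 1 did so in 7 and not in 14. Over all 10431 genes at the same level, replicates 2 and 3 lay above all controls in 18.5% and without replicate 1 in 11.5%, against 26.3% and 15.4% of the ZNF genes. They lay below all controls in 22.2% and without replicate 1 in 14.0%, against 12% and 8.0% of the ZNF genes. ZNF326, a subunit of the DBIRD complex that couples splicing to elongation, was at 16.9, 47.2 and 45.5 FPKM in KDM6A replicates 1, 2 and 3, against 19.8, 16.4 and 16.5 in controls. In the same order of replicates the SCAN gene ZNF24 was at 17.8, 51.3 and 60.7 with KDM6A against 28.4, 17.1 and 20.3 in controls. ZNF322 was at 15.5, 33.0 and 40.7 against 17.6, 11.3 and 16.2, and ZNF146 at 5.72, 10.5 and 13.6 against 6.19, 4.12 and 5.62. In these 4 genes replicate 1 was within the control range and the other two were well above it. They were chosen after their values were seen. With replicate 1 left out 7 of 156 ZNF genes were called higher (4.49%) and 0 lower, where 3.80% and 3.75% of 9596 genes were called (7.56% in all). The 7 were ZNF326 (log2 fold change 1.36, adjusted p = 0.00592), ZNF24 (1.34, 0.0116), ZNF322 (1.25, 0.0138), ZNF146 (1.05, 0.0265), ZNF608 (0.79, 0.0476), ZNF280A (1.05, 0.0481) and ZNF389 (0.79, 0.0496). With any other library left out 0 ZNF genes were called. Whether the level of KDM6A transcript bears on this split was not tested.

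**Figure D5:**
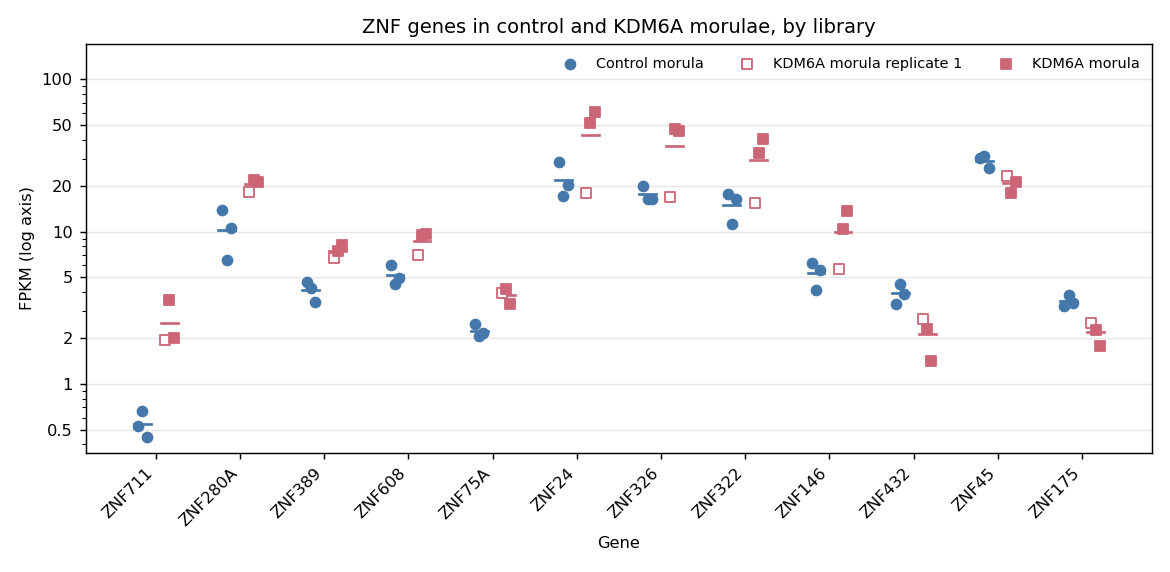
Levels in FPKM on a log axis of 12 ZNF genes in control and KDM6A morulae (points, libraries; lines, group means), with KDM6A replicate 1 as open squares. In ZNF24, ZNF326, ZNF322 and ZNF146 the open square lies among the controls and the filled squares above them, while in ZNF711, where no control reached 1 FPKM, all 3 KDM6A libraries stand above the controls.

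Positions were read by symbol from the RefSeq gene table, whose assembly (ARS-UCD2.0) differs from the build of the files, so only chromosomes and order are used. It placed 172 of the 175 genes on a chromosome, 51 of them on chromosome 18, which holds 92 of its 303 ZNF genes, and 6 on the X. On chromosome 18, 8 genes were higher in control morulae than in 8-cell embryos and 9 were lower among 48 tested (16.7% and 18.8%). Outside it and the X the calls were 29 and 25 of 109 (26.6% and 22.9%). Of all genes tested 42.7% were higher and 27.1% lower. With quantile normalization the counts on chromosome 18 were 4 and 14 (all genes 36.1% and 33.2%), and with median-of-ratios scaling 6 and 13 (36.7% and 32.5%). With a library left out the counts on chromosome 18 were 3 to 11 and 8 to 11. Of 29 pairs of neighboring ZNF genes both members were tested in 25 and called in 5. They were called in the same direction in 2 (ZNF48 with ZNF771, ZNF81 with ZNF182) and in opposite directions in 3 (ZNF576 with ZNF428, ZNF432 with ZNF614, ZNF699 with ZNF177). No share is given for neighboring genes at large. The widest contrast was in ZNF576 and ZNF428, adjacent on chromosome 18. ZNF428 is given above, and ZNF576 was at 10.7, 10.9 and 9.27 FPKM in controls against 22.6, 20.3 and 28.8 in 8-cell embryos (2.32-fold lower, adjusted p = 0.00117). Both pairs called in the same direction, and ZNF699 with ZNF177, hold genes that reached 1 FPKM in only 1 of the 2 groups compared (ZNF48, ZNF81, ZNF182, ZNF699 and ZNF177), whose direction was fixed by the filter.

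Of the 6 X-linked genes 0 were higher and 5 were lower in control morulae than in 8-cell embryos, namely ZNF81, ZNF182 and ZNF75D, all KRAB genes, with ZNF711 and ZNF280C. The shares of all genes tested were 42.7% higher and 27.1% lower. The sixth, ZNF674, was at 4.07, 3.74 and 4.77 FPKM in controls and 3.33, 2.46 and 5.26 in 8-cell embryos, with overlap. Of the 5, 4 were tested only because the 8-cell libraries reached 1 FPKM, so a difference was fixed by the filter, while ZNF280C rested on 1 library. With an 8-cell library left out only 2 of the 6 genes were tested, and 1, 1 and 0 were called lower without replicate 1, 2 and 3. With a control library left out 5, 3 and 4 were called lower. ZNF81 was at 0.15, 0.52 and 0.36 FPKM in control libraries, at 0.09, 0.58 and 1.02 with KDM6A and at 2.61, 2.86 and 6.06 in 8-cell embryos. In KDM6A morulae 3 of the 6 were lower than in 8-cell embryos, ZNF81, ZNF182 and ZNF75D, where 25.6% of all genes were lower. With a library left out 1 or 2 of the 6 were called lower, ZNF81 each time and ZNF182 never. ZNF75D was called only with a KDM6A library left out. ZNF280C was called only without 8-cell replicate 1 or 2, and not with all libraries (adjusted p = 0.0782, limma). ZNF182 and ZNF75D had no KDM6A library at 1 FPKM, so here too the direction of their difference was fixed by the filter. ZNF81 reached that level in 1 KDM6A library only.

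The corepressor partners of KRAB proteins were measured beside them. Of a list of 22 partners 21 were found and 19 tested. In control morulae 11 were higher than in 8-cell embryos and 6 lower, with quantile normalization 8 and 7, and with median-of-ratios scaling 8 and 8. Over all genes tested 42.7% were higher and 27.1% lower, with quantile normalization 36.1% and 33.2%, and with median-of-ratios scaling 36.7% and 32.5%. TRIM28, the scaffold that KRAB domains bind, was at 63.6, 83.0 and 58.4 FPKM in control libraries, at 74.3, 75.5 and 74.3 with KDM6A and at 25.9, 16.1 and 14.2 in 8-cell embryos (adjusted p = 0.000153 for controls against 8-cell embryos). SETDB1, the methyltransferase that TRIM28 recruits, was at 11.3 ± 1.77 FPKM in controls and 5.45 ± 1.32 in 8-cell embryos (SD, n = 3; adjusted p = 0.00717). Both were higher in every control library than in any 8-cell library. ATF7IP, the cofactor that stabilizes SETDB1, went the other way, at 15.2 ± 4.02 against 45.7 ± 3.14 (adjusted p = 0.000226). No partner was called between KDM6A and control morulae (smallest adjusted p = 0.315). For other zinc finger families, by counts, 4 of 8 tested ZSCAN genes were higher in control morulae than in 8-cell embryos and 1 lower, 2 of 11 ZFP genes were higher and 1 lower, and 2 of 23 ZBTB genes were higher and 12 lower. With quantile normalization the split was 3 and 2 for ZSCAN and 1 and 3 for ZFP, and with median-of-ratios scaling 4 and 2 for ZSCAN and 1 and 2 for ZFP. The ZBTB split was 2 and 15 under both scalings and 6 to 12 lower with a library left out. Of the ZNF genes, 24.2% were lower, and the difference between these families was not tested.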

How the data were processed

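Levels of all genes in 9 libraries were used as FPKM, the unit deposited by the authors per the file headers. The submitters' processing notes name bcl2fastq 2.16, HISAT 0.1.6, StringTie 1.0.4, Bowtie2 2.2.5, RSEM 1.2.12 and the build UMD3.1, without their order or roles. The files hold no counts, so depth is unknown and no counting interval is given. For genes at low levels in both libraries of a pair, the log2 ratios between the libraries were put in narrow bins. The fullest bin held 4.30% to 8.96% of these genes over 36 pairs. There is no reference value for the share that steps of whole reads would give, so this cannot decide whether such steps are present. Rows were joined by gene identifier. Levels were tested as log2(FPKM + 1) with limma 3.58.1 in R 4.3.3 (empirical Bayes with a trend), in 1 fit per comparison over its 6 libraries. Genes at 1 FPKM or more in 3 or more of these entered, and p-values were adjusted by Benjamini-Hochberg over all of them with a threshold of 0.05. The pseudocount of 1 makes log2 fold changes of low genes smaller than the change in FPKM, and "-fold" is the ratio of mean FPKM. The procedure was tested on simulated data. Tables were handled in Python 3.11.15 with pandas 2.3.3, numpy 2.4.6 and matplotlib 3.10.9.

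The ZNF genes and the lists of roles and partners were chosen with earlier results of these data known. Genes were named by rule: per comparison the 10 largest called changes each way without overlap and with the higher group's mean at 5 FPKM or more, or the 5 smallest p-values where fewer passed. The 5 highest per group, the 5 on each side of the detection rule, the 5 with the smallest and largest coefficients of variation and up to 6 per role list were named as well. Genes named as further called members of a list, as detected at 1 stage, on the X, as neighbors or for KDM6A replicate 1 were chosen after their values were seen. Alternatives were other pseudocounts, filters, scalings, a fit of all 9 libraries, a replicate block and each library left out.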

Additional observations from a re-analysis of the deposited data

How the results depend on the processing

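Against the 37 ZNF genes higher in control morulae than in 8-cell embryos there were 18 with a filter of 5 FPKM, which tests fewer genes, and 23 with quantile normalization. The 49 higher in KDM6A morulae became 25 and 28. With each library left out in turn these counts ranged from 18 to 40 and from 21 to 46, and the counts of lower genes from 30 to 34 and from 28 to 33. For the comparisons with 8-cell embryos no share of all genes is given under the other filter or with a library left out. Between KDM6A and control morulae the count of higher genes ranged from 0 to 7 and that of lower genes was 0 throughout. For the shifts under scaling and left-out libraries the cause was not tested. A detection level of 5 FPKM in place of 1 left 94 of the 175 genes. Among the named genes 25 of 31 called in control morulae against 8-cell embryos and 27 of 28 called in KDM6A morulae kept their call in all alternatives that tested them, and none reversed. The call of ZNF394 against controls (adjusted p = 0.031) was lost without any control library (up to 0.0943), without 8-cell replicate 1 (0.0700) or 3 (0.126) and with no filter (0.0720). Depth is unknown, so what it limits could not be given.

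With the replicate number as a block the calls were 0 higher and 0 lower between KDM6A and control morulae, 36 and 42 in control morulae against 8-cell embryos, and 46 and 33 in KDM6A morulae against 8-cell embryos. Same-numbered libraries deviated together by correlations of -0.22 to 0.13, -0.04 to 0.00 and -0.09 to 0.08 over genes, in the same order. Differently numbered libraries reached up to 0.28 between KDM6A and control morulae, and up to 0.06 in each comparison with 8-cell embryos. With so few libraries these correlations cannot decide whether same-numbered libraries share more than a number, such as a day.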
